A study of Mus musculus with 4 samples.

Results

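The 7 genes described here are Msh4, Msh5, Mlh3, Hfm1, Rnf212, Ccnb1ip1 and Cntd1, which act in the maturation of meiotic crossovers. They were taken by symbol from a RefSeq gene table, and all 7 were found among its 21887 protein-coding genes on chromosomes of the peak lists. The assay was ATAC-seq, where open DNA is cut and tagged by the transposase Tn5, in pachytene spermatocytes from mouse testis. The labels name 4 libraries with the tag P35, 2 of genotype Znhit1_KO and 2 of genotype CTRL. ZNHIT1 is a subunit of the SRCAP complex, which exchanges histone H2A for the variant H2A.Z, and the study asked how it affects accessibility at this stage. The labels do not state the deleted part of Znhit1, a Cre driver, the strain or the animals per library. The data analysed are 2 lists of peak intervals on mm10, 1 recorded for the first Znhit1_KO library and 1 for the first CTRL library, each giving only the chromosome, start and end of an interval. With 1 list per genotype, no difference below has a replicate check and none was tested. In a bulk sample, fewer nuclei open at a site and weaker opening in each nucleus cannot be told apart.

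During pachytene, homologous chromosomes are held together by the synaptonemal complex while a small part of the recombination intermediates mature into crossovers, which later hold the homologues together until the first meiotic division. MSH4 and MSH5 form a MutS-type clamp on branched intermediates, and the helicase HFM1, the mouse counterpart of yeast Mer3, works on the same intermediates. RNF212 stabilises MSH4 and MSH5 at a subset of sites, and HEI10, encoded by Ccnb1ip1, and the cyclin-like protein CNTD1 narrow that subset to the final crossover sites. At those sites MLH3 is part of the MutL-type endonuclease that resolves the intermediate.

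The lists as a whole differed in length. The Znhit1_KO list held 21004 separate intervals and the CTRL list 15376, after an interval that stood on several lines was counted a single time. Of these, 29.0% in the Znhit1_KO list and 39.13% in the CTRL list stood on more than 1 line. A repeated line may be an additional summit of the same interval, but the files do not say, and it is not a replicate. The labels state over 30000000 reads per library, but the depth behind each list is unknown, and list length moves with depth and enrichment. All 8 pachytene spermatocyte markers, among them Sycp1, Sycp3, Mybl1 and Piwil1, had an interval within 1 kb of either gene end in both lists, which 28.6% of all coding genes had. At the start alone, 6 of the 7 of these markers with a strand were in both lists, where 28.8% of coding genes with a strand were. Ldhc was in the CTRL list alone, where 4.04% were. None of 5 spermatid, 5 Sertoli cell, 5 Leydig cell and 4 immune cell markers had an interval within 1 kb of either end in either list. Of all coding genes, 57% had none either. Of 5 spermatogonial markers, Id4 had one, in the CTRL list alone. This interval was at the gene start, where 4.04% of coding genes with a strand had one in the CTRL list alone. Znhit1 itself had an interval at its start of 692 bp in the Znhit1_KO list and 633 bp in the CTRL list, which does not check the genotype, since the deleted part is unknown.

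Chromatin at the starts of Msh4, Msh5, Hfm1 and Rnf212 was listed as accessible in both genotypes, while Mlh3 had a start interval in the Znhit1_KO list alone, Cntd1 in the CTRL list alone and Ccnb1ip1 in neither. A start interval is one within 1 kb of the 5′ end of the gene, with the strand read from the RefSeq promoter table. Among 17492 coding genes with a strand, 28.8% had a start interval in both lists, 8.69% in the Znhit1_KO list alone, 4.04% in the CTRL list alone and 58.5% in neither. The crossover genes numbered 4, 1, 1 and 1 in these classes. In each list 5 of the 7 had a start interval. Of all coding genes with a strand, 37.5% had one in the Znhit1_KO list and 32.8% in the CTRL list. A list without an interval does not show that the site was closed, since a site can miss the peak caller's threshold.

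The 250 bases before the start are shown for the 3 genes whose start was not in both lists, for Rnf212, whose start interval differed most in width between the lists, and for Hfm1, which had the most CpG dinucleotides. They are from RefSeq (GRCm38.p6), run 5′ to 3′ on the strand of the gene and end at the base before the transcript start. Capitals mark matches on either strand to CCAAT (the CCAAT box), GGGCGG (SP1), TTCCCGC (E2F), TGACG (part of the cyclic AMP response element) and CNCCTCAG (the STRA8 motif), and matches that touch or overlap run together.
Mlh3 (chr12:85270600-85270849, minus strand): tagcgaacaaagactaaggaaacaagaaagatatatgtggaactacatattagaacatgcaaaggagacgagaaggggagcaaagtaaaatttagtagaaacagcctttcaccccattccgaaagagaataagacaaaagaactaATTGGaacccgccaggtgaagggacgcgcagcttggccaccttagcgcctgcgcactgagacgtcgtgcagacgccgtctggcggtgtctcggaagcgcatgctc
Cntd1 (chr11:101278953-101279202, plus strand): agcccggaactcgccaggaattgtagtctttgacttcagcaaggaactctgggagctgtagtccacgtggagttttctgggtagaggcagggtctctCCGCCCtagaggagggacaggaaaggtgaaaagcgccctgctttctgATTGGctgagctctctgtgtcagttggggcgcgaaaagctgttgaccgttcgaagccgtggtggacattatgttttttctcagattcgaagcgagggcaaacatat
Ccnb1ip1 (chr14:50795729-50795978, minus strand): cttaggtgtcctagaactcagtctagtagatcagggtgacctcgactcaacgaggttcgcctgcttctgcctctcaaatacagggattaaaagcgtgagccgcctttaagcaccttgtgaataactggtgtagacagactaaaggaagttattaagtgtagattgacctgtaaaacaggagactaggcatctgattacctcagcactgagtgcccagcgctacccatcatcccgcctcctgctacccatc
Rnf212 (chr5:108775028-108775277, minus strand): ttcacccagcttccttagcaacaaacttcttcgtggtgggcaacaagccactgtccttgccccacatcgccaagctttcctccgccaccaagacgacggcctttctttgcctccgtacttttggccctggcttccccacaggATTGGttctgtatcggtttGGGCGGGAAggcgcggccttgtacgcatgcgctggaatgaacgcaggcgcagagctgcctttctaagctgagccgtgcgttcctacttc
Hfm1 (chr5:106925891-106926140, minus strand): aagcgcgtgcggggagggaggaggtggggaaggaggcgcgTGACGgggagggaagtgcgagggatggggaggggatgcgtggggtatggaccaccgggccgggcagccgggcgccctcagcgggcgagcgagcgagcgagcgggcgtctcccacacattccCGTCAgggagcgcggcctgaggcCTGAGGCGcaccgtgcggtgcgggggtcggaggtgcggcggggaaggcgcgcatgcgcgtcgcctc
The Mlh3 stretch lay within a Znhit1_KO interval over all of its 250 bases and within a CTRL interval over 0. The Cntd1 stretch was the reverse, with 0 bases in a Znhit1_KO interval and 250 in a CTRL interval. For Rnf212 the figures were 250 bases in the Znhit1_KO list and 128 in the CTRL list, for Hfm1 all 250 in both, and for Ccnb1ip1 0 in both.

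**Figure D1:**
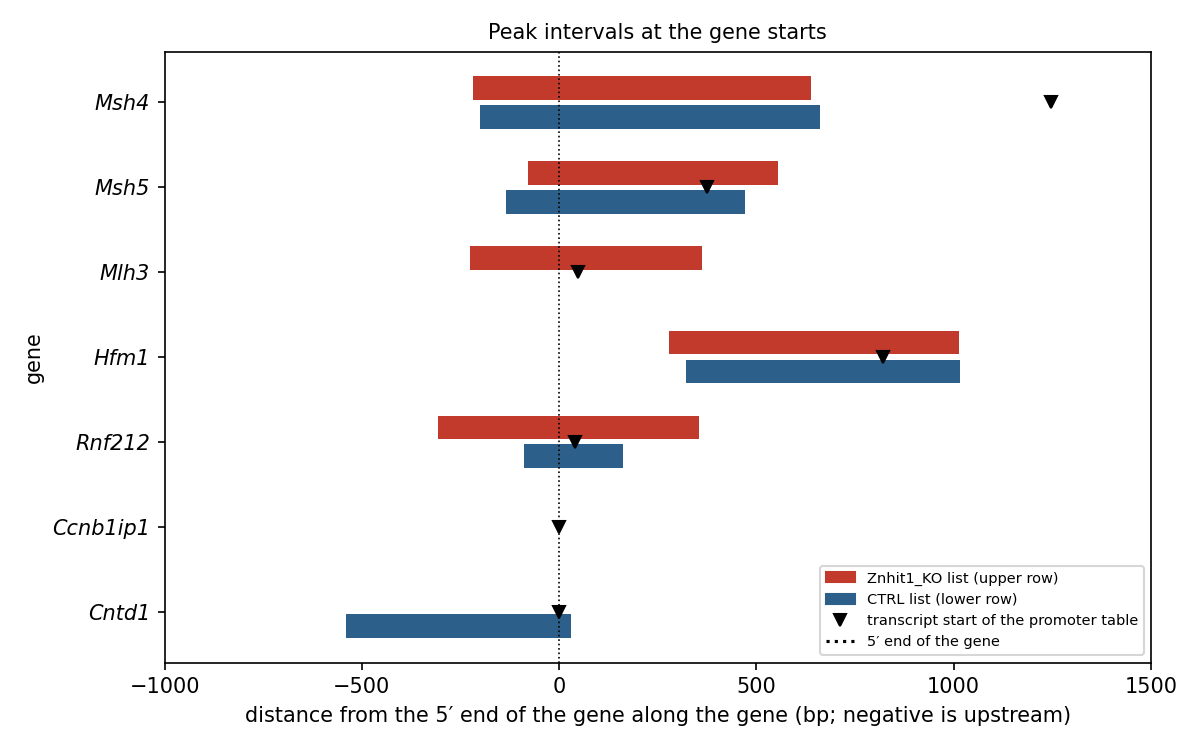
Peak intervals at the start of each gene, drawn from 1000 bp upstream to 1500 bp downstream of the 5′ end (bp along the gene), with the Znhit1_KO list above the CTRL list and a triangle at the transcript start of the promoter table. Msh4, Msh5 and Hfm1 had nearly superimposed intervals, Rnf212 had a wider one in the Znhit1_KO list, Mlh3 and Cntd1 had one in a single list and Ccnb1ip1 had none.

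Msh4 and Msh5, which encode the partners of the MutS-type clamp, both had a start interval in each list. Msh4 lies on chromosome 3 from 153857141 to 153906138 on the minus strand, so its start is the higher coordinate. Its start interval ran from 153905500 to 153906357 in the Znhit1_KO list (858 bp, on 3 lines) and from 153905478 to 153906339 in the CTRL list (862 bp, on 2 lines). The edges differed by 22 and 18 bp, and the overlap of 840 bp made up 97.9% of the Znhit1_KO interval and 97.4% of the CTRL interval. This was the widest start interval of the 7 genes in either list, wider than 73.6% of all start intervals in the Znhit1_KO list and 72.9% in the CTRL list. The interval covered the 5′ end of the gene, whereas the transcript start of the promoter table lies 1247 bp inside the gene and outside both intervals. The 3′ end of Rabggtb, a subunit gene of the Rab prenylating enzyme, also lay within 1 kb of it.

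Msh5 lies on chromosome 17 from 35028605 to 35046997 on the minus strand. Its start interval ran from 35046442 to 35047076 in the Znhit1_KO list (635 bp, on 2 lines) and from 35046527 to 35047133 in the CTRL list (607 bp, on 1 line). The 550 bp in common were 86.6% of the Znhit1_KO interval and 90.6% of the CTRL interval, with the Znhit1_KO edges 85 and 57 bp to the lower-coordinate side, that is, towards the gene body. Msh5 also carried more intervals in the Znhit1_KO list than any other of the 7 genes, 4 in all, against 1 in the CTRL list. The mean over the 7 genes was 1.86 in the Znhit1_KO list and 1.29 in the CTRL list. Over all coding genes it was 1.05 and 0.83. The other 3 were narrow and stood on 1 line each: 261 bp inside the gene (35033125 to 35033385), 211 bp at its far end (35028494 to 35028704), where the end of Sapcd1 is also near, and 200 bp upstream inside the chloride channel gene Clic1 (35051897 to 35052096). None of these 3 overlapped a CTRL interval.

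Hfm1 had an interval of nearly the same extent in both genotypes. The gene lies on chromosome 5 from 106840193 to 106926712 on the minus strand and is the longest of the 7, at 86520 bp. Its start interval ran from 106925699 to 106926434 in the Znhit1_KO list (736 bp, on 2 lines) and from 106925696 to 106926390 in the CTRL list (695 bp, on 3 lines), with 692 bp in common. On the upstream side the Znhit1_KO interval reached 44 bp farther, and on the downstream side the edges were 3 bp apart. It did not reach the annotated 5′ end, which lay 278 bp from the Znhit1_KO interval and 322 bp from the CTRL interval, but it covered the transcript start of the promoter table in both lists. A narrow interval of 280 bp inside the gene (106908048 to 106908327) was in the Znhit1_KO list alone.

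Rnf212, which encodes a RING finger protein of the SUMO ligase type, was in both lists with unequal widths. The gene lies on chromosome 5 from 108728105 to 108775067 on the minus strand. Its start interval ran from 108774714 to 108775375 in the Znhit1_KO list (662 bp, on 2 lines) and from 108774906 to 108775155 in the CTRL list (250 bp, on 1 line). The CTRL interval lay wholly inside the Znhit1_KO interval and made up 37.8% of it, ending 192 bp short on one side and 220 bp short on the other. In the Znhit1_KO list 51.4% of all start intervals were narrower than that of Rnf212, and in the CTRL list 3.6% were. No other interval lay within 10 kb of the gene in either list.

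Of the 4 shared starts, 3 had nearly the same width in both lists. The log2 ratio of Znhit1_KO to CTRL width was -0.01 at Msh4, 0.07 at Msh5, 0.08 at Hfm1 and 1.40 at Rnf212, with a median of 0.07. Over 4104 coding gene starts where 1 interval met 1 interval, the median was 0.03 with quartiles of -0.28 and 0.38, 18.3% lay within 0.1 of 0, and 5.6% lay above 1. The ratio was lower than that of Rnf212 at 98.3% of these sites. Width is the only size the lists give, and it also moves with depth and with the caller's merging of neighbouring summits.

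Mlh3 and Cntd1, which act at the final crossover sites, had a start interval in opposite lists. Mlh3 lies on chromosome 12 from 85234466 to 85270647 on the minus strand. Its start interval, from 85270287 to 85270873 (587 bp, on 2 lines), covered the 5′ end and was in the Znhit1_KO list alone. The nearest CTRL interval lay 9147 bp upstream of the start, from 85279794 to 85280589 (796 bp, on 2 lines), within the overlapping genes Acyp1 and Zc2hc1c. A second Znhit1_KO interval of 308 bp (85240620 to 85240927, on 1 line) lay inside Mlh3 and overlapped no CTRL interval.

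Cntd1 lies on chromosome 11 from 101279203 to 101288701 on the plus strand. Its start interval, from 101278663 to 101279232 (570 bp, on 2 lines), was in the CTRL list alone. This stretch is shared with a neighbour, because Coa3, which encodes an assembly factor of cytochrome c oxidase, is transcribed away from Cntd1 with its start 255 bp from that of Cntd1. The interval reached 540 bp upstream of the Cntd1 start, over the start of Coa3, and 29 bp into Cntd1, so it cannot be given to 1 of them alone. In the Znhit1_KO list the nearest interval lay 8877 bp upstream of the Cntd1 start, inside Wnk4 (101270090 to 101270326, 237 bp, on 1 line). The CTRL list had a further interval of 364 bp inside Becn1, on the downstream side (101295260 to 101295623, on 1 line). The start intervals of Mlh3 and Cntd1 were of ordinary width, wider than 42.2% of all start intervals in the Znhit1_KO list for Mlh3 and 39.2% in the CTRL list for Cntd1.

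Ccnb1ip1, which encodes the ubiquitin ligase HEI10, had no start interval in either genotype. It is the shortest of the 7 genes, at 6480 bp, on chromosome 14 from 50789249 to 50795728 on the minus strand. The only interval within 10 kb was in the Znhit1_KO list, 3521 bp beyond the far end of the gene (50785312 to 50785728, 417 bp, on 1 line), where it covered the start of the neighbouring gene Ttc5. In the CTRL list the nearest interval to the start lay 11708 bp away.

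In all, 13 intervals of the Znhit1_KO list and 9 of the CTRL list lay inside the 7 genes or within 10 kb of an end, a stretch of 393.0 kb. Every one of the 7 genes had at least 1 such interval in the Znhit1_KO list and 6 had one in the CTRL list, where 60% and 52% of all coding genes did. Of the 13 Znhit1_KO intervals 5 overlapped a CTRL interval by at least 1 bp (38.5%, Wilson 95% interval 17.7 to 64.5), and of the 9 CTRL intervals 5 overlapped one of the Znhit1_KO list (55.6%, 26.7 to 81.1). Over the whole lists the shares were 32.4% of Znhit1_KO intervals and 44.4% of CTRL intervals. These confidence intervals cover counting error only. At the window's edge, the farthest interval counted was the CTRL interval upstream of Mlh3, 9147 bp from the gene, and the nearest one left out was a Znhit1_KO interval 11659 bp from Ccnb1ip1.

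**Figure D2:**
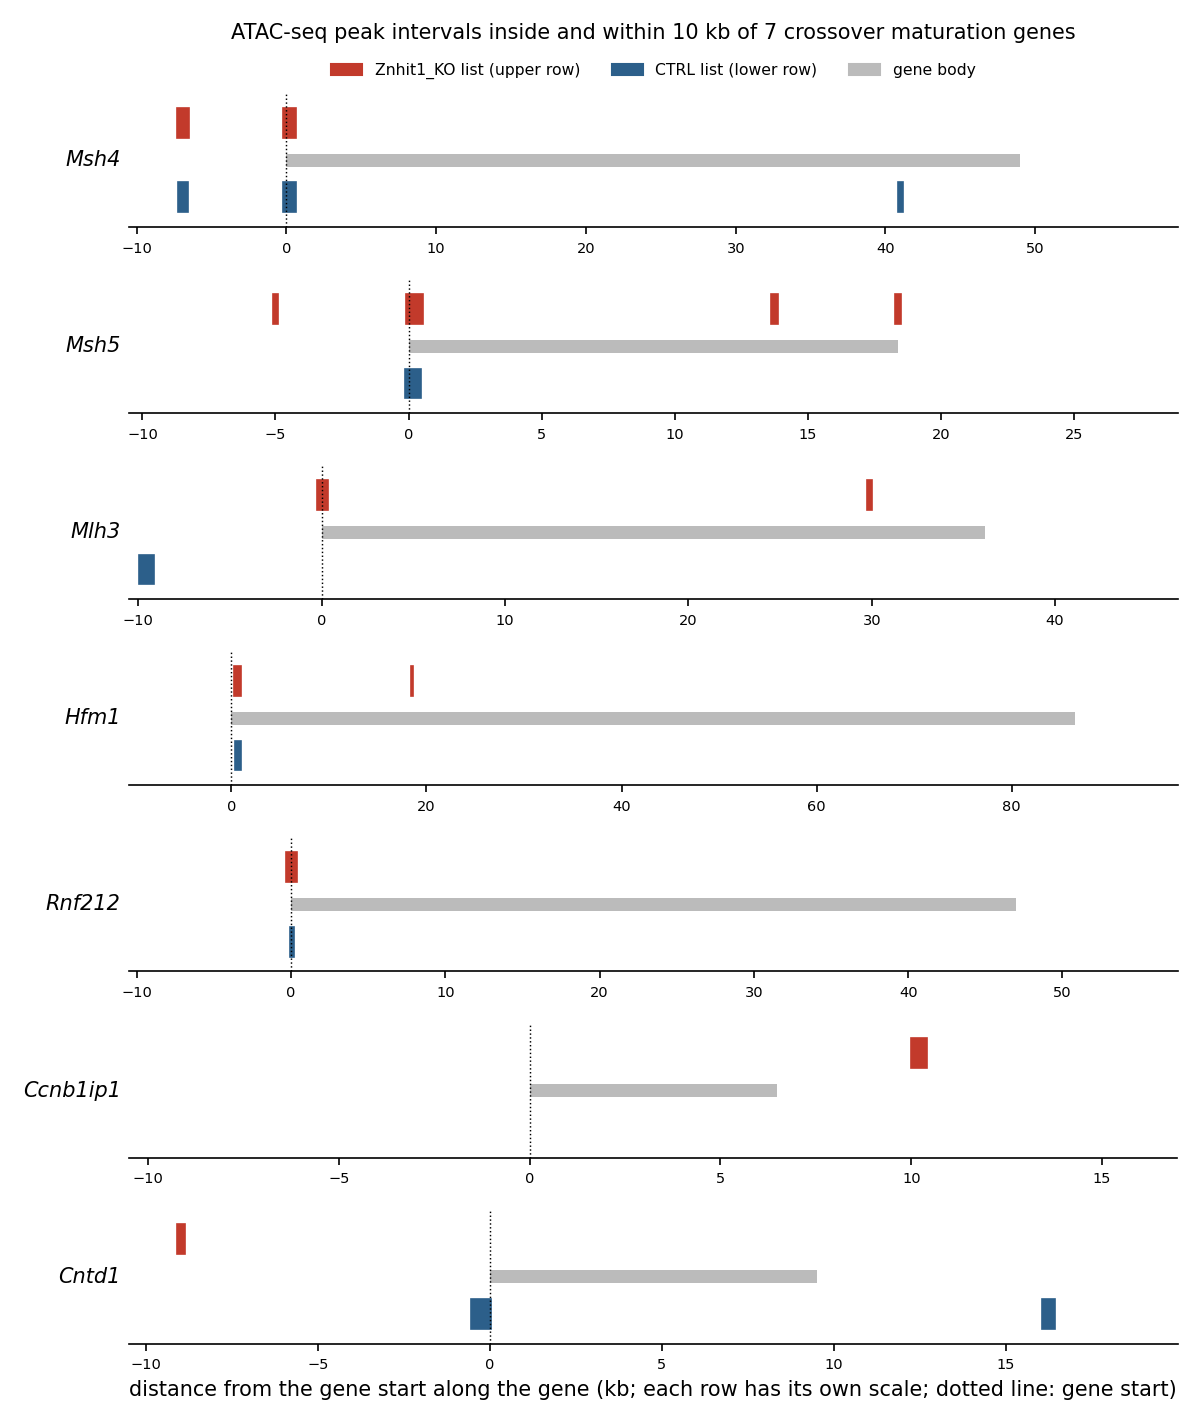
Peak intervals inside and within 10 kb of each gene, as distance from the gene start (kb along the gene, each row with its own scale), with the Znhit1_KO list above and the CTRL list below the gene body. The 13 Znhit1_KO and 9 CTRL intervals coincide at 4 gene starts and upstream of Msh4, and nowhere else.

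The intervals away from the starts of the 7 genes were mostly in 1 list. There were 8 in the Znhit1_KO list, of which 7 stood on 1 line and 5 were under 300 bp wide, and 4 in the CTRL list, of which 1 stood on 1 line and 0 were under 300 bp. Over all intervals away from coding gene starts, 83% of the Znhit1_KO list and 74.3% of the CTRL list stood on 1 line. Of the same intervals, 50.6% in the Znhit1_KO list and 36.3% in the CTRL list were under 300 bp. These shares leave out the starts of the 17492 coding genes with a strand but keep those of coding genes without one. The counts leave out only the starts of the 7 genes. The counts include Znhit1_KO intervals at the starts of Ttc5 and Rabggtb and a CTRL interval at that of Rabggtb. Counts and shares are thus not of like sets, and the 4 CTRL intervals are also few. Only 1 site of this kind was in both lists, at the start of Rabggtb upstream of Msh4, from 153912661 to 153913406 in the Znhit1_KO list (746 bp) and from 153912687 to 153913401 in the CTRL list (715 bp). Being at a coding gene start, the Rabggtb site is outside the set of all intervals away from such starts. Of that set, 15.9% in the Znhit1_KO list and 23.5% in the CTRL list overlapped the other list. Inside Msh4, the CTRL list alone had an interval of 343 bp on 2 lines (153864992 to 153865334). The gene table gives no exons, so intervals inside a gene are not assigned to an exon or intron.

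At the starts, 4 of 5 intervals of each list overlapped the other list, where 72.5% of all start intervals of the Znhit1_KO list and 84.4% of those of the CTRL list did. All 5 Znhit1_KO start intervals stood on more than 1 line and 3 of the 5 CTRL intervals did, the exceptions being Msh5 and Rnf212. Among all start intervals 58.3% of the Znhit1_KO list and 64.8% of the CTRL list stood on more than 1 line. With both lists limited to intervals on at least 2 lines, the start intervals in both lists were those of Msh4 and Hfm1, those of Msh5, Mlh3 and Rnf212 were in the Znhit1_KO list alone, and that of Cntd1 was in the CTRL list alone. With intervals under 300 bp left out, Rnf212 likewise joined Mlh3 in the Znhit1_KO list alone.

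Promoter CpG content ranged widely among the 7 genes. Counted in the 250 bases before the transcript start, CpG dinucleotides numbered 34 at Hfm1, 22 at Msh5, 16 at Rnf212, 15 at Mlh3, 12 at Cntd1, 7 at Ccnb1ip1 and 4 at Msh4, where the median of 21263 coding promoters was 10. The GC content was 75.6% at Hfm1 and 67.2% at Msh5, and it was lowest at Msh4, at 43.6%, in a stretch that lies outside both intervals of that gene. Among coding genes with 20 or more CpG, 56.6% had a start interval in both lists and 27.9% in neither. With 10 to 19 CpG, as at Cntd1, Mlh3 and Rnf212, 45.1% were in both, 13.5% in the Znhit1_KO list alone, 5.7% in the CTRL list alone and 35.7% in neither. With 5 to 9, as at Ccnb1ip1, 67.8% were in neither. With 0 to 4, as at Msh4, 2.6% were in both and 93.1% in neither, although Msh4 itself was in both.

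**Figure D3:**
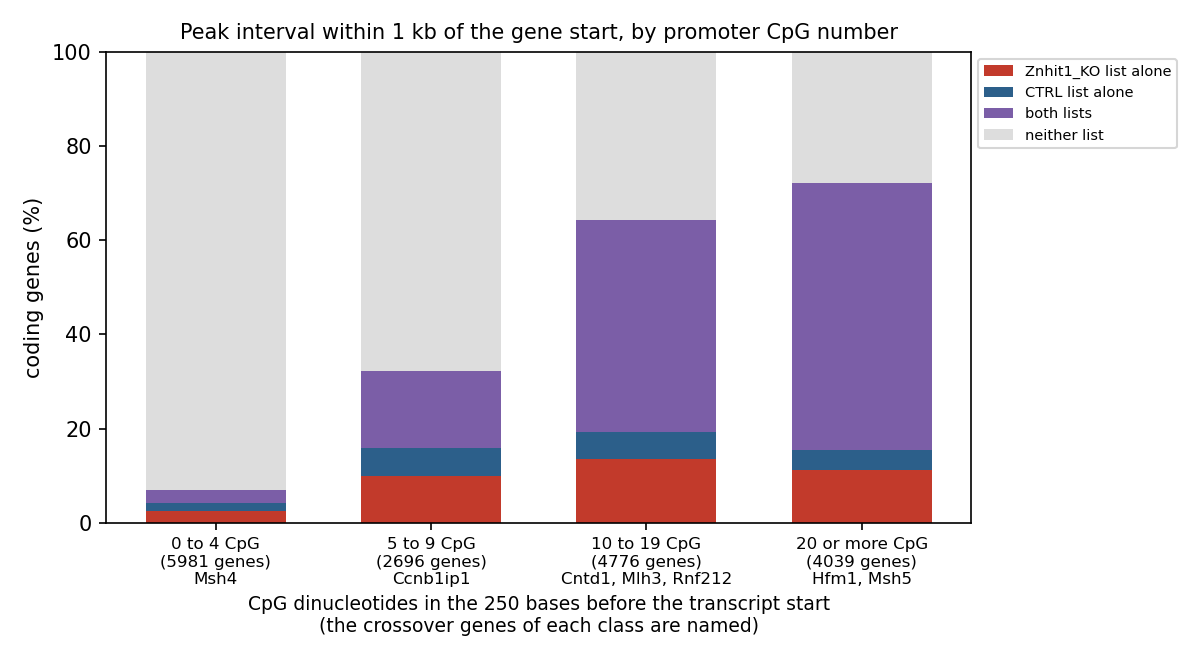
Percent of coding genes with a start interval in the Znhit1_KO list alone, the CTRL list alone, both lists or neither, by the number of CpG dinucleotides in the 250 bases before the transcript start. The share in both lists is 2.6% in the lowest class and 56.6% in the highest, and the 7 crossover genes are named under their class.

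The promoters shared no single motif of the 9 searched. CCAAT, on either strand, was in 4 of the 7 stretches (Msh5, Mlh3, Rnf212 and Cntd1), against 35.4% of coding promoters. GGGCGG was in 3 (Msh5, Rnf212 and Cntd1), against 42.6%. At Rnf212 it overlapped a match to TTCCCGC on the other strand, which was also in Msh5 and is in 4.96% of coding promoters. The STRA8 motif CNCCTCAG, named for the transcription factor of meiotic entry, matched in Msh5, where it overlapped a TGACG match, and in Hfm1, against 6.75%. TGACG was also found in Hfm1 and is in 20.2% of coding promoters, and the palindromic NRF1 motif was in Hfm1 alone and is in 1.07%. The short MYB core AACNG was in all but Hfm1, but also in 73.1% of coding promoters, and neither AACNGTT (3.5%) nor TGACGTCA (1.92%) was in any of the 7. A match is a description of the letters and not a binding site.

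The other genes of the crossover pathway mostly had accessible starts in both genotypes. Of 21 names listed, 19 matched the gene table, and 14 of these had a strand. Of the 14, 11 had a start interval in both lists, where 28.8% of all coding genes with a strand did. A further 1 was in the Znhit1_KO list alone, 0 in the CTRL list alone and 2 in neither. The 5 dissolution and anti-crossover genes with a strand were all in both lists, among them the helicase gene Blm (525 bp in the Znhit1_KO list and 1245 bp in the CTRL list) and Rmi1, a partner of BLM and TOP3A (1558 and 1632 bp). Pms2, another MutL gene, was in both lists (859 bp in the Znhit1_KO list and 766 bp in the CTRL list). Of the structure-selective nuclease genes, Gen1 (1164 and 928 bp) and Slx4, a nuclease scaffold (883 and 1102 bp), were in both lists. Eme1, the partner of MUS81, had 473 bp on 2 lines in the Znhit1_KO list alone, and Mus81 had a start interval in neither.

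Among the partners of crossover designation, Cdk2, the kinase found at crossover sites, was in both lists (715 bp in the Znhit1_KO list and 966 bp in the CTRL list). So was Prr19, whose product works with CNTD1 in the mouse (392 and 509 bp). The helicase gene Brip1 was in both too, with 544 bp in the Znhit1_KO list. In the CTRL list Brip1 had 2 start intervals, the wider of 893 bp. Rnf212b had no start interval in either list, but with transcript starts of the promoter table in place of gene starts it was in both. For 5 genes without a strand in the table, intervals within 1 kb of either end were counted, which 28.6% of all coding genes had in both lists, 9.81% in the Znhit1_KO list alone and 57% in neither. Top3a was in both lists (447 bp in the Znhit1_KO list and 753 bp in the CTRL list), as was Rmi2 (685 and 716 bp). Exo1, an exonuclease gene of mismatch repair and meiosis, had 767 bp on 2 lines in the Znhit1_KO list alone. Shoc1 and the X-linked gene Tex11, both needed for crossovers in the mouse, had none in either list.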

How the data were processed

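Peak lists of ATAC-seq libraries of pachytene spermatocytes were analysed. The genome build was mm10, and MACS2 2.2.4, Picard 2.20.7, Bowtie2 2.3.4.3 and cutadapt 2.5 were used, per the submitters' processing notes. What each tool did, the peak threshold, shifting for the Tn5 cut, duplicate removal and pooling of replicates are unknown here. The deposited lists have 3 columns (chromosome, start, end) and no header, height or score, so no count or signal test was possible, and the other 2 libraries were not analysed here. Intervals on several lines were counted a single time, and positions are 1-based. Genes came from RefSeq's GRCm38.p6 table (the same primary chromosomes as mm10). The start of a gene is its 5′ end, with the strand from the RefSeq promoter table. Overlap means at least 1 bp, and bedtools 2.31.1 gave the same 5 overlapping intervals in each list. Python 3.11.15, numpy 2.4.6, pandas 2.3.3, scipy 1.17.1 and matplotlib 3.10.9 were used, and overlap and start assignment were tested on simulated intervals. The rule for naming took the 7 genes, the pathway and marker lists, and genes at an interval; some pathway genes, markers and non-coding genes are given only within counts or left unnamed. These genes and lists were chosen with earlier results of these data known. For 2 pathway names, Spo16 and Redic1, no entry was matched. Another pathway gene is not reported here.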

Additional observations from a re-analysis of the deposited data

How the results depend on the processing

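Across 10 other settings and 1 chosen after seeing the data (starts of the promoter table's transcripts), 63 of 70 recomputed values stayed within 1.5 times the reported count or within the 95% interval of the reported percentage. The 95% intervals are wide (17.7 to 64.5 for the Znhit1_KO list and 26.7 to 81.1 for the CTRL list), so staying within them is a weak check. Merging intervals within 200 bp changed no value. With both lists limited to intervals on at least 2 lines, the Znhit1_KO list had 6 intervals near the 7 genes, 2 genes had a start interval in both lists and 3 in the Znhit1_KO list alone, and 2 pathway genes, Blm and Recql5, were in the CTRL list alone. With intervals under 300 bp left out, the Znhit1_KO list had 8 intervals and 2 genes had a start interval in the Znhit1_KO list alone. With 3 kb around the start, 2 pathway genes, Rnf212b and Eme1, were in the Znhit1_KO list alone, and 12, with Mus81 among them, were in both. With the promoter table's transcript starts, 10 pathway genes were in both lists. Rnf212b was among these 10, and Slx4 and Fancm were not. Each of these follows from which intervals, distances or starts were used. Shares over all coding genes with these settings are not given, so the counts are not read as a result about the named genes. Mlh3 in the Znhit1_KO list alone and Cntd1 in the CTRL list alone held in all 7 settings that bear on starts. That is no check of either difference, because these settings could not change it. The 2 intervals were 587 and 570 bp wide, on 2 lines each. The nearest interval of the other list lay 9147 bp from the Mlh3 start and 8877 bp from the Cntd1 start. No replicate could be left out, and the depth behind the lists is unknown. No paired analysis was possible because there is 1 list per genotype.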

Other observations

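Between 10 and 20 kb from the 7 genes lay 6 more intervals of the Znhit1_KO list and 4 of the CTRL list, and 4 in each overlapped the other list. Over the whole lists, 32.4% of Znhit1_KO and 44.4% of CTRL intervals overlapped the other list. Within 1 kb of the start of a coding gene with a strand the shares were 72.5% and 84.4%. All 4 of the sites in both lists lay at other genes. Near Ccnb1ip1 an interval at Parp2, a DNA repair gene, and Rpph1, the RNA component of RNase P, measured 976 bp in the Znhit1_KO list and 818 bp in the CTRL list. Beyond Mlh3 the interval at Eif2b2, a translation initiation factor gene, measured 701 bp in the Znhit1_KO list and 410 bp in the CTRL list. Beyond Cntd1 the interval at the autophagy gene Becn1 measured 671 bp in the Znhit1_KO list and 441 bp in the CTRL list. Beyond Msh5 the interval at Ddah2 measured 268 bp in the Znhit1_KO list and 482 bp in the CTRL list. The remaining 2 intervals were both in the Znhit1_KO list alone. One of 364 bp on 2 lines (85287936 to 85288299) lay within the overlapping genes Acyp1 and Zc2hc1c, near the start of Acyp1 at 85288438. The other, of 464 bp, lay outside genes beyond Hfm1.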
